A study of Arabidopsis thaliana with 6 samples.

Results

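The enzymes that make jasmonate in Arabidopsis thaliana leaves were followed by 10 genes chosen by name, with probe set identifiers in parentheses: the lipoxygenase genes LOX2 (AT3G45140_at), LOX3 (AT1G17420_at) and LOX4 (AT1G72520_at), the allene oxide synthase gene AOS (AT5G42650_at), the allene oxide cyclase genes AOC1 (AT3G25760_at), AOC2 (AT3G25770_at) and AOC3 (AT3G25780_at), the reductase gene OPR3 (AT2G06050_at), the CoA ligase gene OPCL1 (AT1G20510_at) and the conjugating enzyme gene JAR1 (AT2G46370_at). Rows were found for 8 of the 10 among 21430 probe sets, each named for 1 locus, and AOC1 and AOC2 were not analysed here. All 8 passed the filter on low values, which asked for log2 4 or more on 3 or more arrays out of 6, as did 16210 probe sets in all. Plants 6 weeks old, raised in soil in short days at 400 ppm CO2, either spent 24 h at 100 ppm CO2 (low CO2, 3 arrays) or remained at 400 ppm (ambient CO2, 3 arrays), and leaves of 4 to 5 plants were pooled for each array. The labels name no genotype and no treatment other than the CO2 level, and the series title places the comparison under photorespiratory stress. The deposited values are log2 expression made with GCRMA.

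Jasmonates are lipid hormones made from linolenic acid, known in leaves for their surge after wounding and herbivore attack and for restraining growth. Lipoxygenases, allene oxide synthase and allene oxide cyclase act in the chloroplast and yield OPDA, which peroxisomal OPR3 reduces. OPCL1 then activates the product for shortening by beta-oxidation, and JAR1 joins the resulting jasmonic acid to isoleucine, the form sensed by the receptor COI1 together with JAZ repressor proteins. Several genes of synthesis are themselves known to be induced by jasmonate.

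Low CO2 was not accompanied by a detectable change in these genes. Means were lower in low CO2 for 7 of the 8, as for 53.8% of all probe sets tested, and higher for JAR1, as for 46.2%, with differences from -0.65 to 0.10 on the log2 scale and a median of -0.40. By limma, adjusted over all 16210 probe sets, 0 of the 8 passed 0.05, as did 0% of the probe sets in either direction. At an unadjusted p under 0.05 there were also 0 of 8, against 26.1% of all probe sets tested. The groups overlapped for all 8, while 28.9% of probe sets had groups without overlap. The widest spread was inside the ambient group, where replicate 1 was the highest of all 6 arrays for 7 of the 8 genes, as it was for 14% of all probe sets.

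Over all probe sets tested the arrays were not equally alike within their groups. On the leading principal component, which held 75.7% of the variance, low CO2 replicate 1 lay at -13.2, nearer to the ambient arrays (-38.2 to -22.4) than to low CO2 replicates 2 and 3 (46.4 and 60.9). On the next component, which held 10.5%, low CO2 replicate 1 and ambient replicate 1 stood together at 18.7 and 18.8, and the other arrays ran from -21.0 to -0.94. Each member is therefore given with all 6 arrays, without low CO2 replicate 1 and without ambient replicate 1. Of the markers for the tissue, 6 genes of photosynthetic cells had median levels of log2 13.86 to 13.97 on the 6 arrays, whereas 5 genes of flowers and stamens, organs that also make jasmonate, reached at most 3.88. In a bulk leaf sample, fewer cells of a type and less RNA per cell cannot be told apart.

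LOX2 encodes the chloroplast lipoxygenase known for most of the jasmonate made in wounded leaves. Its levels were log2 10.88, 10.20 and 9.87 on low CO2 replicates 1, 2 and 3 and 11.68, 10.04 and 10.53 on ambient replicates 1, 2 and 3. The low CO2 values fell within the ambient range except replicate 3, which was the lowest of the 6, and the 3 ambient arrays spanned 3.12-fold. The mean difference was -0.43 (SE 0.45, 95% interval -1.49 to 0.63, limma adjusted p = 0.550). It was -0.71 without low CO2 replicate 1 (adjusted p = 0.239) and 0.03 without ambient replicate 1 (adjusted p = 0.961), so its sign turned when 1 ambient array was left out.

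LOX3 and LOX4 encode related lipoxygenases of the same specificity, which are known to act together in male fertility. LOX3 stood at 5.77, 5.36 and 5.13 in low CO2 and at 6.77, 5.66 and 5.40 in ambient air. Low CO2 replicates 2 and 3 lay just below the lowest ambient array. Ambient replicate 1 lay 1.24 above the mean of the other ambient arrays, beyond the whole span of the low CO2 arrays (0.64). LOX3 differed by -0.53 (SE 0.36, 95% interval -1.39 to 0.34, adjusted p = 0.378), and by -0.11 without ambient replicate 1. LOX4 stood at 5.58, 5.67 and 4.74 in low CO2 and at 6.28, 5.63 and 5.19 in ambient air. Here 2 low CO2 arrays lay close to ambient replicate 2, and low CO2 replicate 3 alone lay below all ambient arrays. The difference of LOX4 was -0.37 (SE 0.34, 95% interval -1.19 to 0.45, adjusted p = 0.508).

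AOS, a cytochrome P450 of the chloroplast, turns the lipoxygenase product into the unstable allene oxide and commits it to jasmonate. Its levels were 10.17, 9.43 and 9.25 in low CO2 and 10.69, 9.77 and 10.21 in ambient air. Low CO2 replicate 1 lay among the ambient arrays and replicates 2 and 3 lay below all of them, as the latter did for 35.1% of all probe sets. The difference was -0.61 (SE 0.31, 95% interval -1.34 to 0.13, adjusted p = 0.251), the smallest p of the 8 genes. Without low CO2 replicate 1, AOS fell by 0.88 on the log2 scale (95% interval -1.47 to -0.29, limma adjusted p = 0.0331), the only one of the 8 called in that fit, in which 18.5% of all probe sets were called lower and 16.8% higher. With the 2 arrays numbered 1 both left out, a setting chosen after seeing the data, AOS fell by 0.65 (adjusted p = 0.0213), beside 22.3% of probe sets called lower. Without ambient replicate 1 alone the difference was -0.37 (adjusted p = 0.471).

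**Figure D1:**
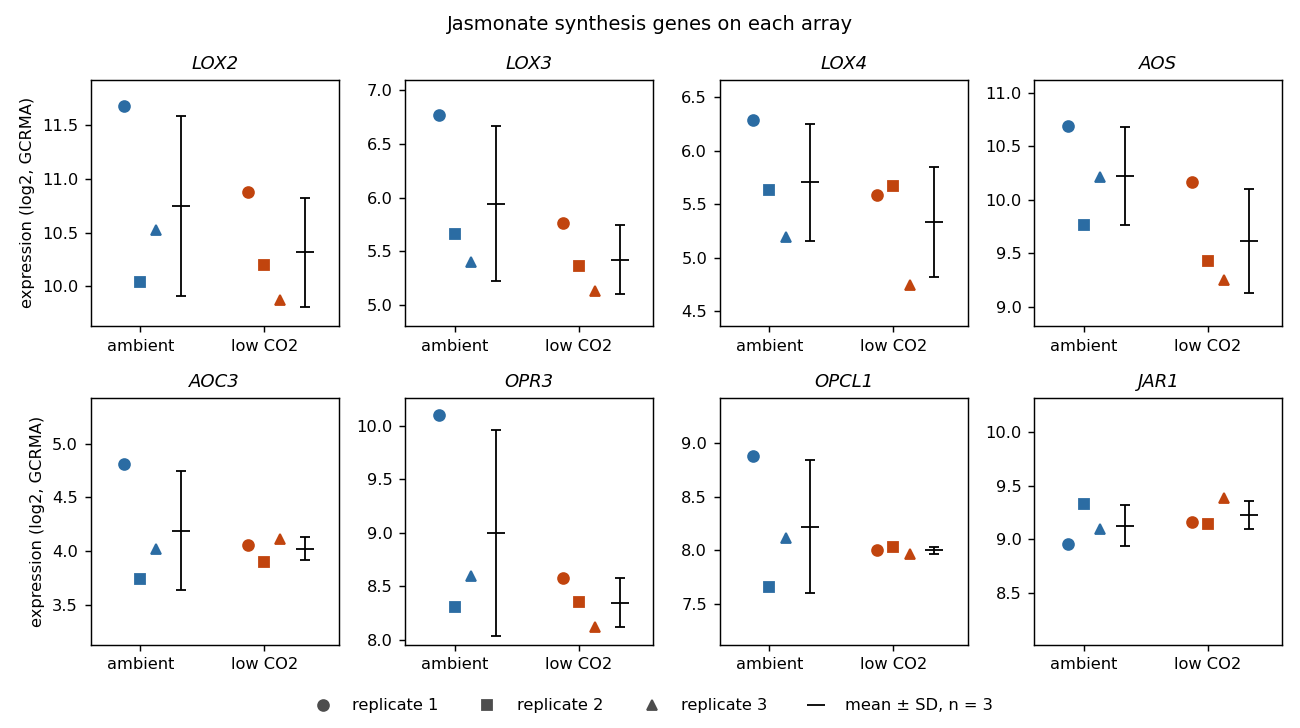
Expression of the 8 jasmonate synthesis genes on each array (vertical axis, log2 GCRMA values, every panel 2.3 units high), with ambient CO2 in blue, low CO2 in orange, a symbol for each replicate and the mean ± SD of 3 arrays beside the points. Ambient replicate 1 is the top point in all panels but that of JAR1, and the groups overlap in every panel.

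AOC3 encodes 1 of the cyclases that set the stereochemistry of OPDA. AOC1, AOC2 and AOC3 are consecutive genes in the RefSeq table and close relatives, and no source used here says whether the AOC3 probe set also catches their transcripts. AOC3 lay near the filter's floor, at 4.05, 3.90 and 4.11 in low CO2 and 4.82, 3.74 and 4.02 in ambient air. It reached log2 4 on 4 arrays. Only ambient replicate 1 was clearly above the others, and the difference of -0.17 (SE 0.27, 95% interval -0.81 to 0.47) became 0.14 without that array.

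OPR3, the peroxisomal reductase of OPDA, had the widest ambient spread of the 8. Its levels were 8.58, 8.35 and 8.11 in low CO2 and 10.10, 8.31 and 8.60 in ambient air. The ambient arrays spanned 3.46-fold, with replicate 1 at 3.13 times the geometric mean of the other ambient arrays, while the low CO2 arrays stayed within 0.46 on the log2 scale. The ambient SD of OPR3 was above that of 99.6% of all probe sets tested. The difference was -0.65 (SE 0.45, 95% interval -1.71 to 0.41, adjusted p = 0.373) and shrank to -0.10 (95% interval -0.57 to 0.36) without ambient replicate 1.

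OPCL1 had the narrowest low CO2 values of the 8, 8.005, 8.03 and 7.97, against 8.88, 7.66 and 8.12 in ambient air. All low CO2 arrays lay inside the ambient range. The difference was -0.22 (SE 0.29, 95% interval -0.91 to 0.47, adjusted p = 0.650), and 0.12 without ambient replicate 1.

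JAR1, the enzyme of the last step, was the exception in 2 respects. Its levels were 9.16, 9.14 and 9.38 in low CO2 and 8.95, 9.33 and 9.10 in ambient air, so ambient replicate 1 was its lowest array instead of its highest, and its mean was higher in low CO2. The difference of 0.10 (SE 0.14, 95% interval -0.23 to 0.43, adjusted p = 0.668) was the most tightly bounded of the 8. Its ambient SD, 0.19, was above that of 67.3% of probe sets, whereas the ambient SDs of the other members were above those of 96.0% to 99.6%.

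Read across the pathway, the spread had a common pattern. Ambient replicate 1 exceeded the mean of the other ambient arrays by 0.70 for AOS, 0.87 for LOX4, 0.94 for AOC3, 1.00 for OPCL1, 1.24 for LOX3, 1.40 for LOX2 and 1.65 for OPR3, and lay 0.26 below it for JAR1. The median over the 8 was 0.97, beside -0.0019 over all probe sets tested. For 7 of the 8, all 3 low CO2 arrays lay below ambient replicate 1, as for 27.9% of all probe sets, and for 7 of the 8 the ambient SD was above the low CO2 SD, as for 34.8%. Inside the low CO2 group, replicate 3 was the lowest for 6 of the 8 (38.2% of all probe sets) and replicate 1 the highest for 4 of the 8 (47.9%). The median difference from the ambient mean was -0.13 on low CO2 replicate 1, -0.42 on replicate 2 and -0.84 on replicate 3. Without ambient replicate 1, 4 of the 8 genes had higher and 4 lower means in low CO2, with a median of -0.03. What set ambient replicate 1 apart was not tested.

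**Figure D2:**
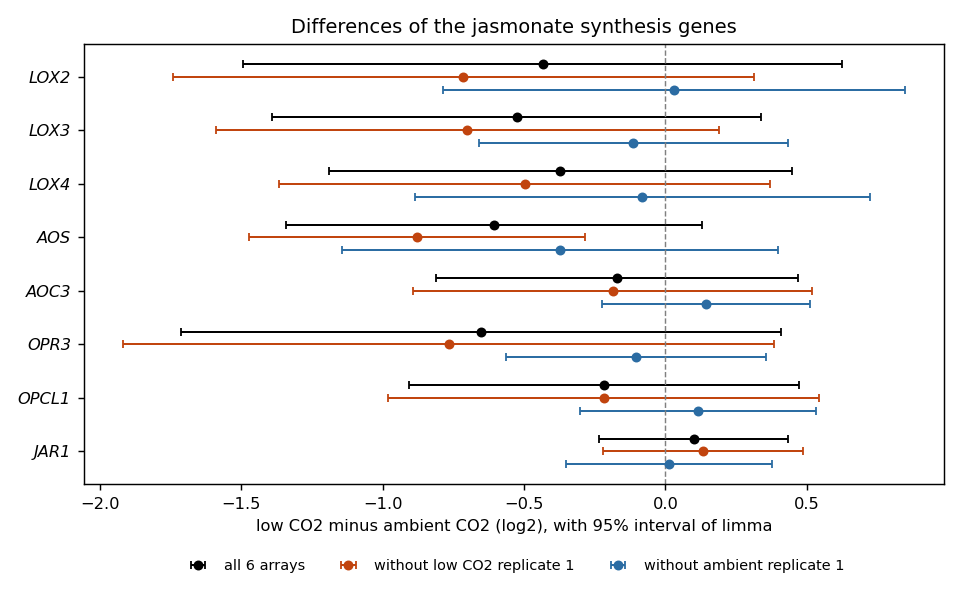
Difference between low CO2 and ambient CO2 for each synthesis gene (horizontal axis, log2), with limma's 95% interval, for all 6 arrays (black), without low CO2 replicate 1 (orange) and without ambient replicate 1 (blue). All intervals include 0 except that of AOS without low CO2 replicate 1, and leaving out ambient replicate 1 brings every gene but AOS to between -0.11 and 0.14.

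The other enzymes of jasmonate synthesis had means in both directions. Of 20 listed, 16 were measured and 15 tested, of which 10 had a higher and 5 a lower mean in low CO2, with a median difference of 0.20. By limma 0 passed over all genes, and at an unadjusted p under 0.05 there were 5 higher and 2 lower, beside 13.5% and 12.6% of all probe sets. Groups did not overlap for 4 higher and 3 lower genes, beside 14.6% and 14.3% of all probe sets. The median by which ambient replicate 1 exceeded the other ambient arrays was 0.11. ACX1 and KAT2, an acyl-CoA oxidase and the main thiolase of peroxisomal beta-oxidation, which shortens many fatty acids besides jasmonate precursors, had low CO2 values above all ambient values. For KAT2 these were 10.11, 10.63 and 10.99 against 9.94, 9.76 and 9.55, a difference of 0.82 (SE 0.23, adjusted p = 0.134), and low CO2 replicate 1 was the closest to the ambient arrays. ACX1 differed by 0.62 (SE 0.19, adjusted p = 0.136), and its low CO2 replicate 1 (9.27) was close to the highest ambient array (9.25).

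FAD3, a desaturase of the endoplasmic reticulum that makes linolenic acid, stood at 9.93, 9.86 and 9.68 against 10.15, 10.73 and 10.59, a difference of -0.67 (SE 0.17, adjusted p = 0.126) without overlap. JMT, which methylates jasmonic acid, stood at 4.28, 3.98 and 3.56 against 4.48, 4.81 and 4.59, a difference of -0.69 (SE 0.20, adjusted p = 0.134) close to the floor. Without low CO2 replicate 1, 6 of the 15 genes of this list rose and 3 fell by limma, beside 16.8% and 18.5% of all probe sets. In that fit KAT2 rose by 1.06 (adjusted p = 0.00443) and ACX1 by 0.79 (adjusted p = 0.00842). KAT5, of the same list and named after its values were seen, fell by 1.05 (adjusted p = 0.00488). With all arrays KAT5 differed by -0.70 (SE 0.31, adjusted p = 0.208), and its low CO2 replicate 1 (10.37) lay inside the ambient range. Without low CO2 replicate 1, FAD3 fell by 0.72 (adjusted p = 0.0224) and JMT by 0.86 (adjusted p = 0.00885). The remaining low CO2 values of JMT, 3.98 and 3.56, lay under the filter's log2 4. Only its ambient arrays reached that level in this fit, so the size of its fall is uncertain. The cyclase gene AOC4 and the lipoxygenase gene LOX6, relatives of the members, differed by -0.25 (SE 0.12) and -0.04 (SE 0.21), neither past the threshold. These 2 relatives were named after their values were seen.

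**Figure D3:**
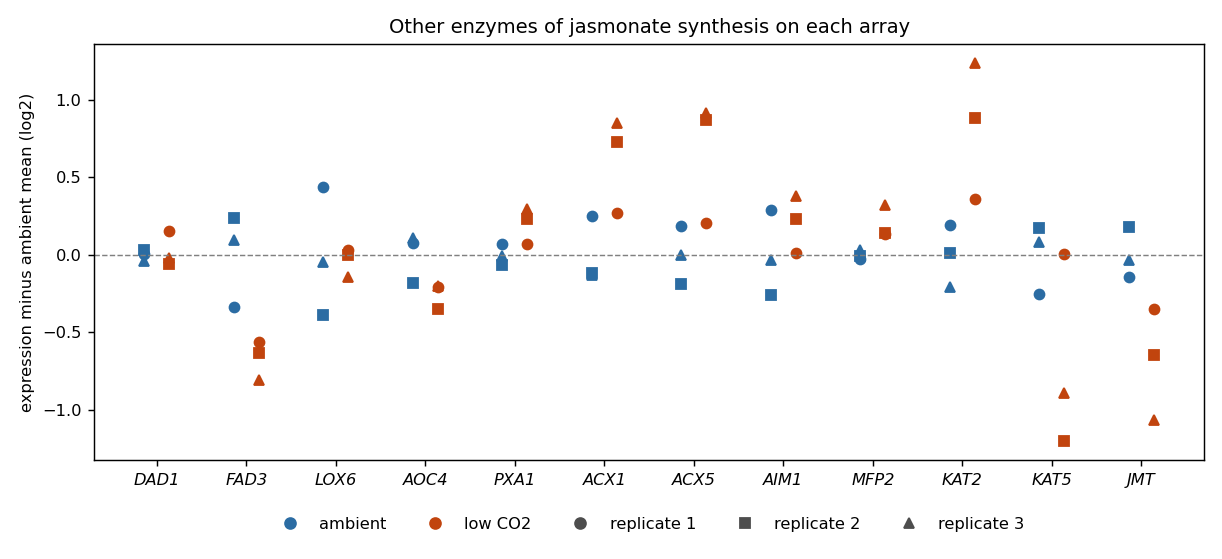
Expression of 12 of the 15 tested genes of the other synthesis enzymes on each array, as the difference from the mean of the 3 ambient arrays (vertical axis, log2), with ambient CO2 in blue, low CO2 in orange and a symbol for each replicate. The tested loci AT1G02660, AT3G62590 and AT1G70480, which the RefSeq table leaves unnamed, are not drawn. Their differences were 0.44, 0.66 and 0.51, all higher in low CO2. KAT2, ACX1, ACX5 and MFP2 have all low CO2 points above the ambient points, and FAD3, JMT and AOC4 have them below. Low CO2 replicate 1 lies nearest to the ambient points for KAT2, ACX1, FAD3 and JMT.

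Enzymes that compete for the same substrates, or belong to the other positional class of lipoxygenase, were measured for 5 of 6 genes and tested for 4. By limma 0 passed over all genes and 1 was higher at an unadjusted p under 0.05, beside 13.5% of all probe sets. ALPHA DOX2, a fatty acid alpha-dioxygenase, stood at 6.60, 7.73 and 7.83 in low CO2 and 6.32, 6.51 and 6.27 in ambient air. The groups did not overlap, but low CO2 replicate 1 lay close to ambient replicate 2, and the difference of 1.02 (SE 0.32, adjusted p = 0.137) became a rise of 1.41 without it (adjusted p = 7.97e-04). LOX1 differed by 0.32 (SE 0.14), LOX5 by -0.12 (SE 0.21) and HPL1, the hydroperoxide lyase that shares its substrate with AOS, by -0.25 (SE 0.31).

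Genes of jasmonate turnover and the JAZ repressors carried the high values of ambient replicate 1 as well. In the turnover list, 9 of 10 genes were measured and 7 tested. By limma 0 of these passed over all genes, and 0 had an unadjusted p under 0.05, beside 26.1% of all probe sets. Ambient replicate 1 was the highest of the 6 arrays for 5, as for 14% of all probe sets. CYP94B3, which hydroxylates the isoleucine conjugate, stood at 4.71, 4.503 and 4.49 in low CO2 and 5.09, 4.47 and 4.56 in ambient air. ST2A, a sulfotransferase of hydroxylated jasmonate, stood at 5.08, 4.90 and 4.97 against 6.41, 4.95 and 4.84, with a difference of -0.42 (SE 0.40) that turned to 0.09 without ambient replicate 1. The loci AT5G05600 and AT2G38240, which the RefSeq table leaves unnamed, differed by 0.99 (SE 0.82) and -0.31 (SE 0.15). For AT5G05600 ambient replicate 1 lay 3.00 above the mean of the other ambient arrays, and without it the difference was 1.99 (adjusted p = 0.132). With both arrays numbered 1 left out, a setting chosen after seeing the data, AT5G05600 rose by 2.37 (limma adjusted p = 9.57e-05). That fit omits the gene's highest ambient array and its lowest low CO2 array, so the small p rests on their omission. With all 6 arrays its limma adjusted p was 0.459. Limma's threshold was passed in the reduced fit by 20.7% of probe sets for a rise and by 22.3% for a fall.

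Of 13 JAZ genes, 11 were measured and 8 tested. By limma 0 passed over all genes, and 1, JAZ12, was higher at an unadjusted p under 0.05 (0.53, SE 0.17), beside 13.5% of all probe sets. Ambient replicate 1 was the highest of the 6 arrays for 7 of the 8 and exceeded the other ambient arrays by a median of 1.48. JAZ1 stood at 6.81, 7.11 and 7.34 in low CO2 and 7.73, 5.53 and 5.28 in ambient air, so all low CO2 arrays lay between ambient replicate 1 and the other 2 ambient arrays. JAZ9 had the same order, at 9.54, 10.19 and 9.99 against 10.25, 8.39 and 8.57. Ambient replicate 1 was the highest ambient array for all 8 tested JAZ genes, so leaving it out had to raise each of their differences. Without it all 8 had higher low CO2 means, as had 7487 of the 16210 probe sets tested. Their median difference was 0.65, and 0 of them passed limma's threshold. The synthesis enzymes, with that array the highest ambient one for 7 of the 8, had a median of -0.03. With both arrays numbered 1 left out, a setting chosen after seeing the data, 5 of the 8 JAZ genes rose by limma. In that fit 20.7% of all probe sets were called higher and 22.3% lower. JAZ1 rose by 1.82 (limma adjusted p = 3.35e-04), JAZ9 by 1.61 and JAZ3 by 0.66, whereas among the synthesis enzymes 0 rose and AOS fell. That fit omits the highest ambient array of JAZ1, JAZ9 and JAZ3, and the lowest low CO2 array of JAZ1 and JAZ9. These calls therefore rest on the omission. With all 6 arrays the differences were 0.91, 0.84 and 0.38 (limma adjusted p = 0.369, 0.302 and 0.350). In the fit without both arrays numbered 1, 4 of 7 turnover genes rose and 0 fell, and 7 of 15 other synthesis enzymes rose and 3 fell. Of the perception genes 3 of 11 rose and 1 fell, and of the jasmonate-responsive genes 3 of 12 rose and 1 fell. In the competing branches 1 of 4 rose and 0 fell. The differences between the lists were not tested.

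**Figure D4:**
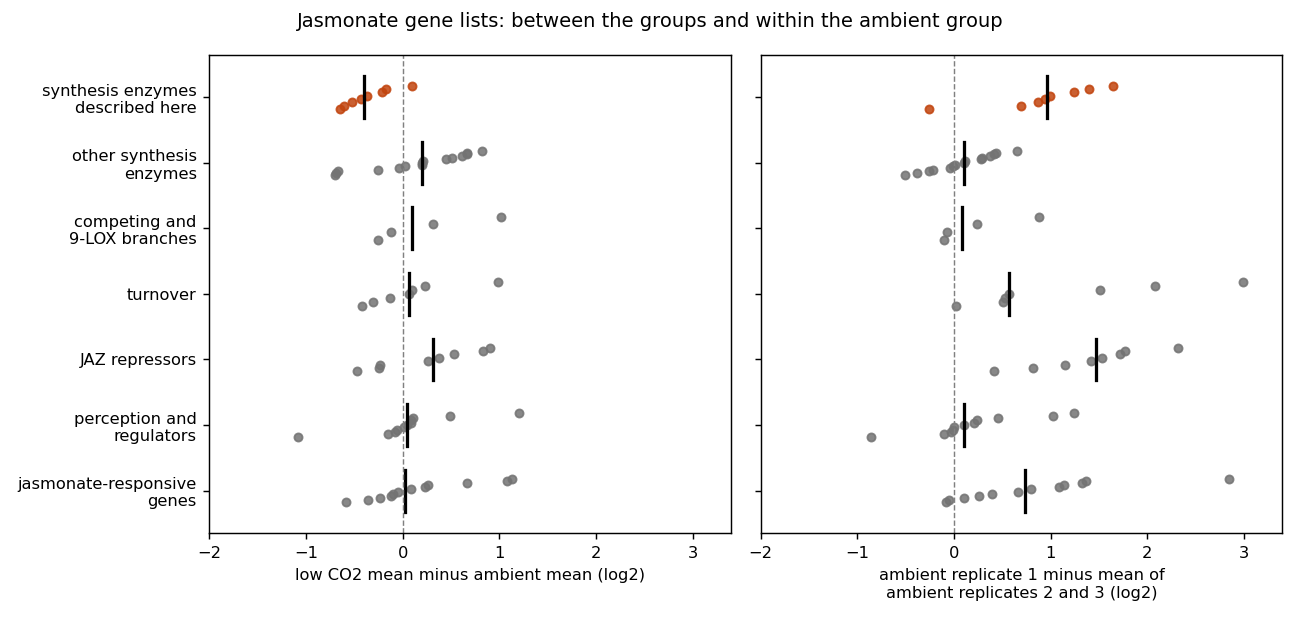
Each tested gene of 7 jasmonate lists as a point and each list's median as a bar, for the difference between low CO2 and ambient CO2 (left, log2) and for ambient replicate 1 minus the mean of ambient replicates 2 and 3 (right, log2). The synthesis enzymes (orange) have a median of -0.40 on the left and 0.97 on the right, and the JAZ repressors 0.32 and 1.48.

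Genes of perception and regulation had a median difference of 0.04. COI1, the receptor subunit, stood at 7.81, 7.74 and 7.70 in low CO2 and 7.67, 7.74 and 7.80 in ambient air, a difference of 0.01 (SE 0.10, 95% interval -0.24 to 0.25). MYC2, the transcription factor that JAZ proteins hold back, stood at 6.71, 7.45 and 7.18 against 7.71, 6.56 and 6.82, with a difference of 0.08 (SE 0.33) and ambient replicate 1 again the highest. By limma 0 of 11 tested genes passed over all genes, and 2 had an unadjusted p under 0.05, beside 26.1% of all probe sets. JAV1, known as a repressor of jasmonate defence, stood at 6.81, 6.93 and 7.47 against 6.17, 5.72 and 5.72, a difference of 1.201 (SE 0.22, adjusted p = 0.115). MYC4, a relative of MYC2, stood at 7.06, 7.15 and 6.77 against 7.50, 8.37 and 8.35, a difference of -1.08 (SE 0.25, adjusted p = 0.118). Neither gene's groups overlapped, and without low CO2 replicate 1 JAV1 rose by 1.33 (adjusted p = 0.00464) and MYC4 fell by 1.11 (adjusted p = 0.0213). The ethylene and jasmonate factor gene ORA59 differed by 0.49 (SE 0.39) and the repressor gene JAM1 by -0.15 (SE 0.19).

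Among 16 genes known to respond to jasmonate, 13 were measured and 12 tested, and VSP2 was not analysed here. Their median difference was 0.02, with 6 higher and 6 lower and 0 past limma's threshold over all genes. At an unadjusted p under 0.05, 1 was higher, beside 13.5% of all probe sets. Ambient replicate 1 was the highest of the 6 arrays for 8 of the 12. BGLU18, a beta-glucosidase of endoplasmic reticulum bodies, stood at 10.26, 10.29 and 9.91 in low CO2 and 11.62, 10.07 and 10.52 in ambient air. The lectin gene JR1 stood at 9.01, 9.68 and 9.78 against 9.79, 8.88 and 9.10. NAC019 and NAC055, transcription factor genes that abscisic acid is also known to induce, went another way, with differences of 1.08 (SE 0.37) and 1.13 (SE 0.49) and with ambient replicate 1 at 0.26 and -0.05 from the mean of the other ambient arrays. With all 6 arrays the limma adjusted p of NAC019 was 0.147 and that of NAC055 0.197. NAC019 stood at 5.15, 5.64 and 6.62 in low CO2, above its ambient arrays (at most 4.91). NAC055 stood at 4.43, 5.73 and 6.57, with low CO2 replicate 1 inside the ambient range (4.42 to 4.51). Without low CO2 replicate 1, NAC019 rose by 1.41 (adjusted p = 0.0125) and NAC055 by 1.70 (adjusted p = 0.00291). These calls rest on leaving out the lowest low CO2 array of both genes. The same fit put 16.8% of probe sets past limma's threshold for a rise and 18.5% for a fall. The defensin gene PDF1.2A, named after its values were seen, differed by 0.27 with all arrays (SE 0.79, limma adjusted p = 0.849). Its low CO2 replicate 1 stood at 7.59, the highest of the 6 arrays, against 4.36 and 4.69 on replicates 2 and 3. Leaving out low CO2 replicate 1 turned the difference to -0.75 (adjusted p = 0.00813), so that call rests on the omission of its highest array.

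The probe sets whose values most resembled the members' mean profile over the 6 arrays were those of the unnamed locus AT5G19110 (r = 0.990), TRM8 (0.988), BPM3 (0.985), APRL5 (0.985) and MES5 (0.985), where r is Pearson's correlation over 6 arrays, given as a description. The profile, the mean over the 8 genes after each gene's own mean was taken off, was 0.81 on ambient replicate 1, -0.20 and -0.07 on ambient replicates 2 and 3, and 0.06, -0.21 and -0.39 on low CO2 replicates 1, 2 and 3. MES5, a methyl esterase family gene, stood at 6.13 on ambient replicate 1 and between 4.89 and 5.53 on the other arrays, while for the remaining 4 ambient replicate 1 exceeded the other ambient arrays by 0.25 to 0.30. A correlation of at least 0.9 was found for 6 of the 57 tested genes in the other jasmonate lists (10.5%) and for 191 of 16125 probe sets outside all lists (1.18%). These 6 were CYP94B3, ST2A, JAZ6, JAZ10, CORI3 and BGLU18, of which JAZ6, JAZ10 and CORI3 were named after their values were seen.

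Markers of other leaf cell types were set beside these values. Ambient replicate 1 differed from the other ambient arrays by a median of -0.11 over 6 vascular markers and -0.10 over 6 epidermal and trichome markers. Summed on the linear scale, the 6 vascular markers ranged from 1329 to 1631 in low CO2 and from 1300 to 1403 in ambient air, and the 6 epidermal markers from 4241 to 4937 and from 4455 to 5981. In these lists 0 genes passed limma over all genes. At an unadjusted p under 0.05 there were 0 vascular markers and 1 epidermal marker, which was lower, beside 12.6% of all probe sets.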

How the data were processed

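The authors deposited 1 log2 value per locus-named probe set, computed with GCRMA, a tool credited to the submitters' processing notes. GCRMA corrects background by probe sequence, makes the arrays' distributions alike and draws weak probe sets to a common floor. The log base was inferred from the range of the values, 2.62 to 14.20. Total RNA of 5 µg entered each labelling, per the labels. No source used here gives the probe grouping or the genome build. Array medians lay between 6.07 and 6.11, and precision is limited by having 3 arrays a group.

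Probe sets reaching log2 4 on 3 or more arrays out of 6 were kept, without regard to group. Low CO2 was compared with ambient CO2 over all of them in limma 3.58.1 (R 4.3.3, lmFit and eBayes, 2-sided, Benjamini-Hochberg). The fit was also tested on simulated data. For 3 arrays against 3, an exact permutation test has a smallest p of 0.1 and was not used. Names came from a RefSeq table of assembly TAIR10.1, which held all 116 listed loci, and 11 of them go by that table's symbol or locus. Of all probe sets 221 share their 6 values with another, and 0 of these are members. Figures were drawn with matplotlib 3.10.9.

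The members, lists and tests were chosen with earlier results of these data known. Named were all members, the 4 genes of each list with the smallest p, COI1, MYC2 and VSP2, and the 5 probe sets most like the members. The other settings tried were no filter, log2 5 as the floor, trended and robust eBayes, quantile normalization, centring on medians, a replicate block, array weights, Holm adjustment and each array left out.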

Additional observations from a re-analysis of the deposited data

How the results depend on the processing

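Leaving out each array in turn moved the difference of LOX2 from -0.79 to 0.031, LOX3 from -0.80 to -0.11, LOX4 from -0.63 to -0.08, AOS from -0.88 to -0.37, AOC3 from -0.40 to 0.14, OPR3 from -0.9996 to -0.10, OPCL1 from -0.50 to 0.12 and JAR1 from 0.01 to 0.20. The signs of LOX2, AOC3 and OPCL1 turned without ambient replicate 1, and AOS alone was called, without low CO2 replicate 1. Over all probe sets these omissions gave 0 to 2722 calls higher and 0 to 3001 lower. Without both arrays numbered 1, a setting chosen after seeing the data, there were 3354 higher and 3616 lower, AOS was at -0.65, and AOC3 and OPCL1 turned to 0.13 and 0.11.

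Array weights gave 4798 calls higher and 5573 lower, AOS at -0.71 (limma adjusted p = 0.00229), LOX4 turned to 0.19, JAR1 to -0.0078, and a median of 0.15 for the perception list against 0.04. The weights stopped short of convergence and gave low CO2 replicate 2 a weight of 40.4 and the other arrays 0.12 to 1.56. With no filter or a floor of log2 5 the median of the competing branches was 0.32 against 0.10, over more or fewer genes. Both filters, trend and robust eBayes, quantile normalization, centring and Holm adjustment made 0 calls and kept the sign of all 8 members, except that AOC3 was not tested at a floor of log2 5. Of these settings, only quantile normalization and centring could change a member's difference, and Holm adjustment could not add calls. Each replicate number holds 1 array of each group, so a block on it could not change the members' differences, only their SE and p. LOX2 stayed at -0.43 and AOS at -0.61 (limma adjusted p = 0.238), with 0 calls over all probe sets. The labels do not say that the replicate numbers pair samples, so the main fit had no block. Deviations from the group means correlated at -0.19, 0.02 and -0.20 between same-numbered arrays, and at 0.30 between low CO2 replicate 1 and ambient replicate 3. These values cannot decide whether the samples were paired, since the deviations within a group depend on each other. In the values themselves, low CO2 replicate 1 correlated best with ambient replicate 1 (0.986, against 0.980 and 0.982). The number of arrays and the spread inside each group limit the precision.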
